A study of Homo sapiens with 9 samples.

Results

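Untreated cells of HT-29, a widely used line from a human colon adenocarcinoma that grows as an epithelial sheet, were described by the level of every gene their arrays name. The 14884 genes ranked are those to which the platform annotation gives 1 symbol, with the row of highest mean over the 3 untreated arrays kept for each gene. They come from 16098 named rows of 53617 rows in all, so 30.0% of the array is named here and 37519 rows are not. The study used 9 whole-transcript arrays (GeneChip 2.0 ST) in 3 groups of 3, all of HT-29 cells in McCoy's 5A medium with fetal calf serum: the untreated group, which received the vehicle, a group with rosemary extract and a group with carnosic acid. Each was harvested with trypsin after 24 h, and its RNA was isolated with Trizol. The replicates of a group are biological ones by the series' design text. What the vehicle was is not given in the sources used here. All of the RNA comes from 1 cell line in monolayer culture, with no stroma, vessels or immune cells of a tissue.

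The normal colonic epithelium is renewed from stem cells at the crypt base, which divide under Wnt signals. Their daughters become absorptive colonocytes, mucus-filled goblet cells or hormone-secreting enteroendocrine cells as they move up the crypt. HT-29 is known as a line that is largely undifferentiated under standard culture with glucose and that can form absorptive or mucous cells under other culture conditions.

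Levels are RMA values on a log2 scale, so a difference of 1 is a doubling of signal. They are given as the mean ± SD over the 3 untreated arrays. Probes differ in how strongly they bind, so a position in the ranking is a position of array signal, not of transcript number. Levels ran from 2.34 to 12.92 with a median of 5.96, and 25% of genes lay under 4.52 and 25% over 7.54. The 3 arrays correlated at 0.9912 to 0.9916 over all rows (Pearson's r) and ranked the named genes alike (Spearman's rho of 0.9939 to 0.9941). These correlations run across rows or genes, which are not independent replicates. The number of arrays limits the precision.

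The values carry no detection call. A level was therefore set beside 84 keratin-associated protein genes, which are known for their expression in the hair shaft. Their median was 4.22 and their 95th percentile 6.87, and the latter serves as a yardstick for a gene read above the level of largely silent genes. By that yardstick 5155 of the 14884 genes (34.6%) lay above, and 4870 of 11915 protein-coding genes (40.9%). Each count of list members above the yardstick given below is to be read beside these shares. The yardstick set itself reached 8.70, in KRTAP5-7, so a level a little over 6.87 does not show that a gene was expressed, and a level under it does not show that it was silent.

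**Figure D1:**
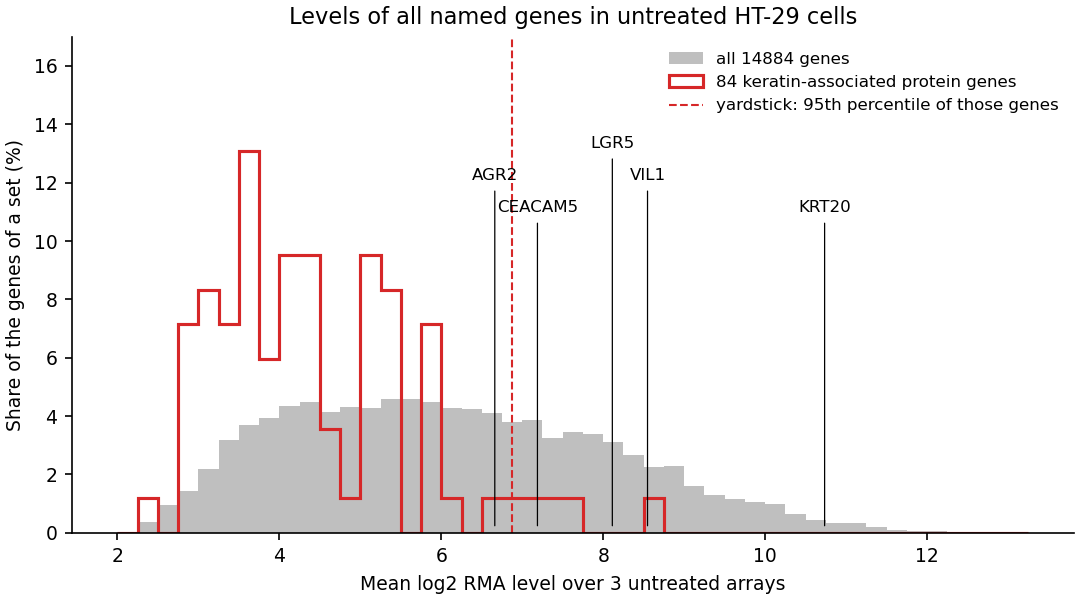
Share of genes (%, vertical axis) by mean log2 RMA level over the 3 untreated arrays (horizontal axis), for all 14884 named genes (grey) and for 84 keratin-associated protein genes (red outline), with the yardstick of 6.87 as a dashed line. Of the 5 marker genes pointed out, KRT20 stands farthest to the right at 10.74 and AGR2 lies just left of the yardstick at 6.66.

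The colon epithelial markers ran from the top of the ranking to just under the yardstick. KRT20, a keratin of mature colon epithelium, read 10.73, 10.64 and 10.84 on arrays 1, 2 and 3 (mean 10.74 ± 0.10, rank 180). VIL1, villin, which bundles actin in microvilli, read 8.57, 8.55 and 8.51 (8.55 ± 0.03, rank 1853). LGR5, the R-spondin receptor that marks crypt stem cells, read 8.11, 7.97 and 8.26 (8.11 ± 0.14, rank 2572). The arrays of these 3 genes did not overlap with each other and all lay above the yardstick.

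CEACAM5, the carcinoembryonic antigen used as a blood marker of colorectal cancer, read 7.68, 6.88 and 7.00 (7.19 ± 0.43, rank 4426). Array 1 was high and the other arrays lay at or just above the yardstick. AGR2, a protein disulphide isomerase of mucus-secreting cells, read 6.80, 6.38 and 6.80 (6.66 ± 0.25, rank 5630), under the yardstick on every array. Of the 5 markers 4 lay above the yardstick by their means, KRT20, VIL1 and LGR5 by more than 1 on the log2 scale and CEACAM5 by less than its own SD. Without array 2, when the yardstick recomputed on the other arrays was 6.78, AGR2 stood at 6.80 and all 5 lay above.

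The 25 highest-ranked genes were led by RNAs and proteins of the translation machinery, the cytoskeleton and protein folding. RMRP, the RNA of the RNase MRP complex that processes ribosomal RNA, read 12.89, 13.04 and 12.81 on arrays 1, 2 and 3 (12.92 ± 0.12). TMSB10, thymosin beta 10, which binds actin monomers, read 12.77, 12.77 and 12.74 (12.76 ± 0.02). RPL41, a protein of the large ribosomal subunit, read 12.67, 12.62 and 12.61 (12.63 ± 0.04). KRT18, a keratin of simple epithelia, read 12.64, 12.57 and 12.55 (12.59 ± 0.05).

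Cytosolic ribosomal proteins took 6 of the 25 places: RPL41, RPS27 (12.55 ± 0.11), RPL12 (12.47 ± 0.12), RPL10 (12.31 ± 0.10), RPS28 (12.27 ± 0.09) and RPS19 (12.18 ± 0.08). EEF2, the elongation factor that moves the ribosome along the message, stood at 12.26 ± 0.04. Proteins of the endoplasmic reticulum and mitochondria that fold other proteins were PPIB, cyclophilin B (12.14 ± 0.04), CALR, calreticulin (12.01 ± 0.03), and HSPA9, the mitochondrial HSP70 (11.95 ± 0.01). Nucleic acid binding proteins were PTBP1, a splicing regulator (12.04 ± 0.03), XRCC5, the Ku80 subunit of DNA end joining (12.02 ± 0.07), and YBX1, a messenger RNA binding protein (12.01 ± 0.04).

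A pair of secreted enzymes stood among them. LYZ, lysozyme, which cuts bacterial cell walls and in the gut is made by Paneth cells, read 12.41, 12.40 and 12.48 (12.43 ± 0.04, rank 8). KLK6, a trypsin-like serine protease of the kallikrein family, read 12.14, 12.26 and 12.26 (12.22 ± 0.07, rank 14). The arrays of these genes did not overlap: each LYZ array was above each KLK6 array. The others were CSE1L, the exporter of importin alpha (12.23 ± 0.08), TXN, thioredoxin, which reduces protein disulphides (12.10 ± 0.15), OAZ1, the antizyme that directs ornithine decarboxylase to degradation (11.95 ± 0.10), and SNAR-B1, a small noncoding RNA of a multicopy family (12.07 ± 0.14).

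The pseudogenes ANXA2P2 (12.56 ± 0.08), HNRNPA1P10 (12.25 ± 0.09) and RPL13AP20 (11.98 ± 0.18) were also among the 25. They are near-identical copies of ANXA2, HNRNPA1 and RPL13A, and their signal cannot be told apart here from that of the parent gene. ANXA2 itself, through its own named row, read 8.40 ± 0.09, and HNRNPA1 10.23 ± 0.17.

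Neighbours in this order mostly did not differ beyond their spread. In 21 of 24 neighbouring pairs the arrays of both genes overlapped. The exceptions were RMRP over TMSB10, TMSB10 over RPL41, and LYZ over RPL10. Of the 25 genes, 24, 24 and 25 were also among the 25 highest on arrays 1, 2 and 3 alone. Each array is part of the mean that ranked these genes, so a large overlap was built in.

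**Figure D2:**
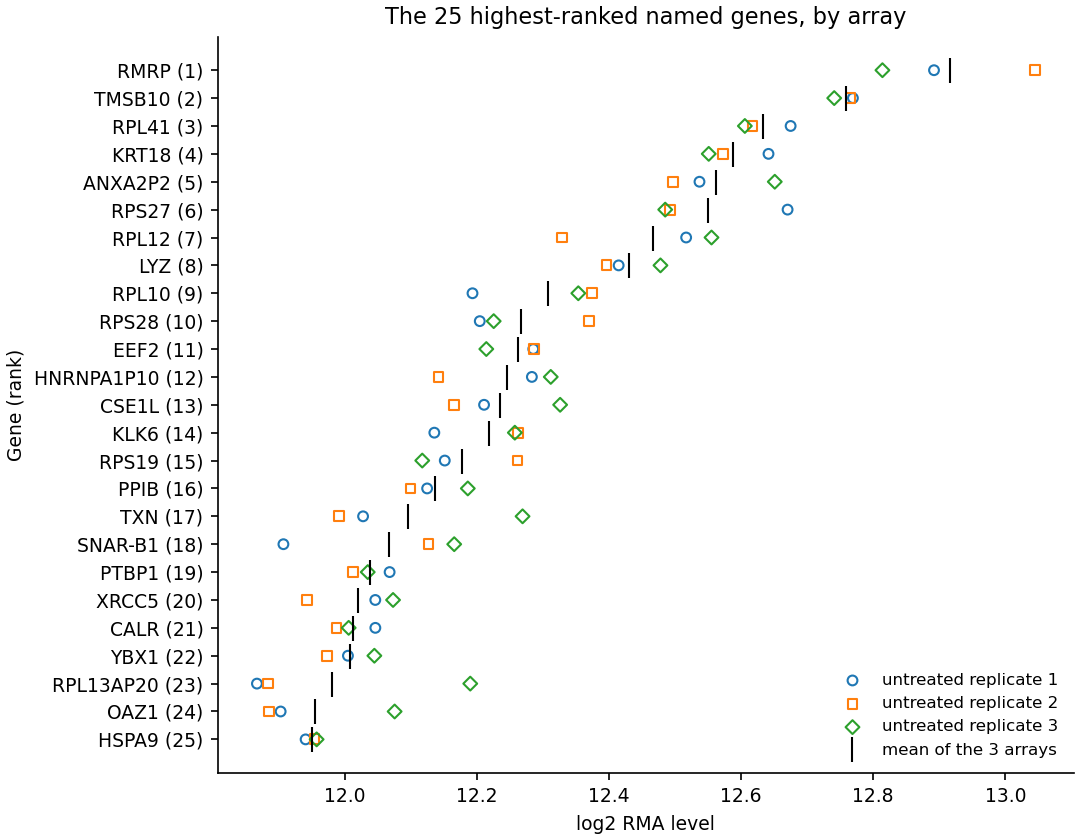
The 25 highest-ranked named genes (vertical axis, with the rank) by log2 RMA level (horizontal axis) on each of the 3 untreated arrays (circle, square and diamond), with the mean as a black tick. The spread of most genes is wider than the step to the next gene, and RMRP, TMSB10 and LYZ stand clear of the gene under them.

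Among the 100 highest genes 91 were protein-coding, 3 were long noncoding RNAs, 3 pseudogenes, 2 small RNAs of the SNAR family, and 1 was RMRP. The level at the limit was 11.13 (rank 100) and the next gene stood at 11.12, so no gap marks the limit. On arrays 1, 2 and 3 alone, 95, 98 and 97 of these genes were also among the 100 highest. Here too each array is part of the mean that chose the genes, so a large overlap was built in. In the treated cells' own rankings 82 of them were among the 100 highest in the mean of the carnosic acid arrays and 70 in that of the rosemary extract arrays. The treated arrays had no part in the choice, so these overlaps and those of the untreated arrays cannot be compared directly.

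A row without a name cannot be ranked here, and this weighs on the top of the list. Only 1 of the 100 rows with the highest means was named, and 201 of the highest 1000 (20.1%). RMRP was row 84 of all rows, and the highest row of all stood at 13.94. Several genes known for high expression in most cells sat low through the row that bears their name. GAPDH stood at 7.43 ± 0.12 (rank 3933), KRT8, the usual partner of KRT18 in filaments, at 7.71 ± 0.11 (rank 3359), and CFL1, cofilin, at 5.47 ± 0.04 (rank 8735). These 3 were chosen after their values were seen, and the cause of their low position was not tested.

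Transcription factors of the intestinal epithelium were widely read. Of 21 named members of a list of 28, 12 (57.1%) lay above the yardstick, and 6 were in the top 10% of the ranking. The median level was 7.17. The shares above were 34.6% for all genes and 40.9% for protein-coding genes, with medians of 5.96 and 6.36. The list also holds ESRP1, a splicing regulator and not a transcription factor, which is counted in each of the list's numbers. EHF, an ETS factor of epithelia, read 10.91, 10.92 and 11.06 on arrays 1, 2 and 3 (10.96 ± 0.08). KLF5, a factor of dividing crypt cells, read 10.60, 10.53 and 10.64 (10.59 ± 0.06), and ESRP1, the regulator of epithelial splicing, 10.57, 10.41 and 10.57 (10.52 ± 0.10). KLF5 and ESRP1 overlapped and EHF lay above both.

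The members under the yardstick included factors that set intestinal cell fate. CDX1, a homeobox factor of the intestine, stood at 6.20 ± 0.16, ATOH1, which starts the secretory lineage, at 6.19 ± 0.35, and ASCL2, a stem cell factor, at 6.24 ± 0.07. CDX2, the close relative of CDX1, was lower still at 5.77 ± 0.12. In a bulk sample fewer cells of a type and less RNA per cell cannot be told apart, and this holds for each lineage below.

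Genes of the crypt stem cell and of Wnt signalling leaned high as a list but were divided. Of 21 named members of 25, 11 (52.4%) lay above the yardstick, against 34.6% of all genes and 40.9% of protein-coding genes. In the top 10% of the ranking were 6, and the median was 8.06. MYC, a growth-promoting factor and Wnt target, read 9.83, 9.70 and 9.71 (9.75 ± 0.07). SOX4, a factor of progenitors, read 9.49, 9.72 and 9.60 (9.61 ± 0.12), and CD44, a hyaluronan receptor and Wnt target, 9.62, 9.45 and 9.65 (9.57 ± 0.10). The arrays of SOX4 and CD44 overlapped. RNF43, which removes Wnt receptors from the surface, stood at 9.46 ± 0.08 and AXIN2, a feedback inhibitor of the pathway, at 8.50 ± 0.07. The 10 members below the yardstick included APCDD1 at 5.03, ASCL2, and EPHB3, an ephrin receptor of the crypt base, at 6.36. OLFM4, a marker of human crypt base cells, read 4.33 and LEF1, a nuclear partner of beta-catenin, 3.36. The rest were NKD1, MSI1, SP5, NOTUM and SMOC2, at 6.71, 6.18, 5.83, 5.72 and 4.49.

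The absorptive cell list, which does not hold the markers KRT20 and VIL1, stood low. Of 21 named members of 33, 2 (9.52%) lay above the yardstick, against 40.9% of protein-coding genes. In the top 10% were 0, and the median was 5.14. DPP4, a brush border peptidase, read 8.73, 8.39 and 8.36 (8.49 ± 0.21), and EPS8L3, a protein of the actin cytoskeleton, 8.07, 7.88 and 7.88 (7.94 ± 0.11). The third in order, CDHR5, a cadherin that links microvilli, stood at 6.34, under the yardstick. ANPEP, an aminopeptidase, read 5.14, and the apolipoproteins APOA1 and APOA4 read 5.89 and 6.34.

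Goblet cell genes lay near or under the background. Of 14 named members of 20, 4 (28.6%) lay above the yardstick, with a median of 6.25. This compares with 34.6% and 5.96 for all genes, and 40.9% and 6.36 for protein-coding genes. Those 4 were GALNT12, which starts the sugar chains of mucins (8.86 ± 0.10), BCAS1 (8.18 ± 0.12), SPDEF, the factor of goblet maturation (8.08 ± 0.13), and CREB3L1, a factor of secretory cells (7.42 ± 0.07). The secreted products TFF3, a trefoil peptide of mucus, and CLCA1, a mucus protein, read 6.39 ± 0.16 and 3.39 ± 0.13, and AGR3, a relative of AGR2, 3.71. MUC2, the main mucin of the colon, has no named row and was not analysed here.

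Of 15 enteroendocrine genes named of 19, ISL1, a homeobox factor, stood alone above the yardstick at 8.17 ± 0.09. The list's median was 5.12. Its hormone and granule genes lay low, with CCK, cholecystokinin, at 5.64, CHGA, chromogranin A, at 5.12 and CHGB at 4.51. Of 5 Paneth cell genes named of 10, LYZ was above and the other members read from 2.85 (REG1A) to 4.95 (REG3A), so the level of LYZ was not shared by the other Paneth genes that are named.

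Markers of cells from outside the epithelium were mostly under the yardstick. Of 12 fibroblast and mesenchymal genes named of 26, 0 lay above, with a median of 4.64. VIM, the mesenchymal filament protein vimentin, stood at 5.98 ± 0.13, THY1 at 6.13 ± 0.17, FN1, fibronectin, at 4.63 ± 0.02 and DCN, decorin, at 2.96 ± 0.02. Of 5 neuronal genes named of 14, 0 lay above, with SYP, synaptophysin, the highest at 6.19. Of 11 leukocyte genes named of 24, 1 lay above: CD68, a lysosomal protein best known in macrophages, at 7.94 ± 0.11. CD14, CD163 and CD247, of monocytes, macrophages and T cells, read 4.98, 3.80 and 5.03.

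Of 10 endothelial genes named of 13, 2 lay above: ESAM, an adhesion protein of tight junctions, at 8.38 ± 0.07 and ENG, endoglin, a co-receptor of the TGF-beta family, at 8.14 ± 0.26. The defining PECAM1 and VWF read 4.20 and 4.87. Of 10 hepatocyte genes named of 16, 1 lay above. This was APOH, a phospholipid-binding plasma protein, which read 9.75, 9.85 and 9.89 (9.83 ± 0.07, rank 582), while ALB, albumin, stood at 3.72, AHSG at 4.62 and TTR, transthyretin, at 6.03. Most members of the leukocyte, fibroblast and neuron lists as written have no named row and were not analysed here.

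**Figure D3:**
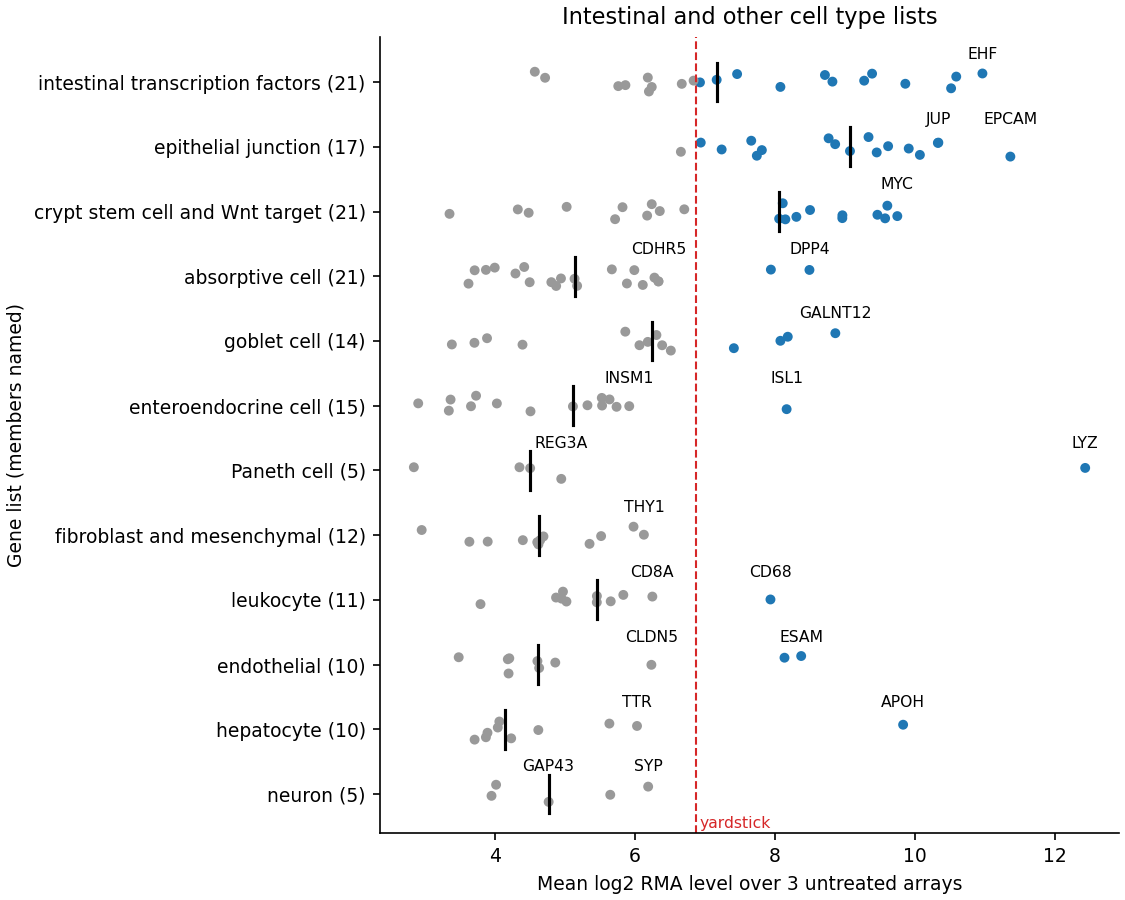
Each point is a gene of a list (vertical axis, with the number of named members) at its mean log2 RMA level over the 3 untreated arrays (horizontal axis), blue above the yardstick of 6.87 (dashed line) and grey at or under it, with the median of the list as a black bar. The medians of the junction, stem cell and transcription factor lists lie right of the yardstick and those of the other lists left of it, with LYZ and APOH far from the rest of their lists.

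Cell-cell contact genes were among the highest lists. Of 17 named junction genes of 28, 16 (94.1%) lay above the yardstick, against 40.9% of protein-coding genes. In the top 10% of the ranking were 10, and the median was 9.07. EPCAM, the epithelial adhesion molecule, read 11.39, 11.34 and 11.36 (11.36 ± 0.02, rank 61). JUP, plakoglobin of desmosomes, and TJP1, the tight junction scaffold ZO-1, both stood at 10.33, with SDs of 0.12 and 0.11. CGN, cingulin of tight junctions, was the member under the yardstick, at 6.66.

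The keratins were few and steeply ordered. Of 48 named, 5 (10.4%) lay above the yardstick, against 40.9% of protein-coding genes: KRT18, KRT20, KRT19 (10.42 ± 0.10), KRT80 (9.01 ± 0.13) and KRT8. The family median was 4.78. The epidermal keratins KRT1 and KRT10 read 4.38 and 3.97, and KRT12, of the cornea, 3.59. Of 24 named claudins, the sealing proteins of tight junctions, 4 (16.7%) lay above, and 2 above the yardstick at the 99th percentile (7.79). CLDN3 (10.22 ± 0.06) and CLDN7 (9.75 ± 0.08) stood well over CLDN1 (7.54 ± 0.14). CLDN10, CLDN11 and CLDN12 stood at 4.29, 5.53 and 4.88.

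Of 3 further families, the shares above the yardstick lay near or under the 34.6% of all genes and under the 40.9% of protein-coding genes. Of 11 named members of the carcinoembryonic antigen family, adhesion proteins that share much of their sequence, 3 (27.3%) lay above: CEACAM6 (9.18, 8.55 and 8.74 on arrays 1, 2 and 3), CEACAM1 (8.61, 8.65 and 8.82) and CEACAM5. Cross-reading between their near-identical stretches was not tested. Of 22 tetraspanins, organisers of membrane proteins, 8 (36.4%) lay above, led by TSPAN13 (9.88 ± 0.06), TSPAN3 (9.84 ± 0.07) and TSPAN1 (9.58 ± 0.10). Of 20 members of the calcium-binding S100 family 5 (25%) did, led by S100A10 (9.62 ± 0.17), S100A16 (9.35 ± 0.03) and S100A14 (8.56 ± 0.08). Of 12 annexins, which bind membranes in the presence of calcium, 10 lay above with a median of 9.31, led by ANXA4 (11.32 ± 0.08), ANXA5 (10.83 ± 0.05) and ANXA1 (10.73 ± 0.20).

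HOX genes, which carry a cell's position along the body axis, were unevenly read across their clusters. Of 10 named genes of the HOXB cluster 6 lay above the yardstick, with a median of 7.57. HOXB9 read 10.60, 10.51 and 10.65 (10.59 ± 0.07, rank 220), with HOXB6 at 9.14 ± 0.22 and HOXB5 at 8.81 ± 0.19. Of 7 named HOXC and 9 named HOXD genes 0 lay above, with medians of 5.54 and 5.03. The HOXA cluster had 1 named gene, HOXA2, at 7.93 ± 0.17. Under the yardstick in the HOXB cluster were HOXB1 at 4.53, HOXB2 at 6.24, HOXB4 at 6.31 and HOXB13 at 5.68.

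Receptors and ligands of growth signalling ranged from the top 10% of the ranking to well under the yardstick. Of 32 named receptor tyrosine kinases of 40, 14 (43.8%) lay above the yardstick, a share near the 40.9% of all protein-coding genes, and 9 lay above its 99th percentile form of 7.79. In the top 10% of the ranking were 6. MET, the receptor of hepatocyte growth factor, read 11.04, 10.95 and 11.08 (11.02 ± 0.07, rank 124), over ROR1 (9.61 ± 0.10), a receptor of the Wnt family, and EPHA2 (9.31 ± 0.07), an ephrin receptor. EGFR, the receptor of epidermal growth factor, read 9.16, 9.13 and 9.34 (9.21 ± 0.11). ALK, DDR2 and EPHA4 stood at 5.03, 4.60 and 4.75.

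Of 9 named ligands of the EGF family 2 (22.2%) lay above, against 40.9% of protein-coding genes. EREG, epiregulin, a ligand of EGFR, read 10.35, 10.32 and 10.47 (10.38 ± 0.08, rank 283), and HBEGF, at 6.94 ± 0.13, lay just over the yardstick. Without array 3, when the yardstick recomputed on the other arrays was 6.95, 1 of the 9 lay above, as also at the 99th percentile of 7.79. BTC, EGF and EPGN read 5.39, 5.28 and 3.47. Downstream, 11 of 13 named genes (84.6%) of the RAS, RAF, MEK and ERK list lay above. They were led by NF1, which switches RAS off (10.30 ± 0.10), MAP2K1, the kinase MEK1 (10.22 ± 0.01), and SHC1, an adaptor of receptors (8.88 ± 0.07). KSR1 stood at 6.85 and MAP2K2 at 5.62.

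Cytokine genes were largely low. Of 22 named of 32, 4 (18.2%) lay above the yardstick, and 2 above its 99th percentile form. For all protein-coding genes the share above the yardstick was 40.9%. The 4 were MIF (10.37 ± 0.18), MDK, midkine (8.12 ± 0.14), LIF (7.29 ± 0.11) and CXCL16 (7.09 ± 0.14). CCL2, CCL20 and CCL28 read 3.53, 3.91 and 4.83. Of 8 named colorectal cancer drivers of 20, 5 (62.5%) lay above, led by SOX9 (9.86 ± 0.04), RNF43 and SMAD2 (9.06 ± 0.01), with AMER1, SMAD3 and SMAD4 at 5.93, 6.39 and 6.76. Of 6 mismatch repair genes named of 8, 4 (66.7%) lay above, led by MSH6 (8.75 ± 0.11), MSH3 (8.53 ± 0.10) and EXO1 (8.18 ± 0.13), with MLH3 at 6.22 and PMS1 at 6.46. Of 9 cancer-testis antigens named, 0 lay above, the highest being CTAG2 at 6.02; most are GAGE copies that share sequence.

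**Figure D4:**
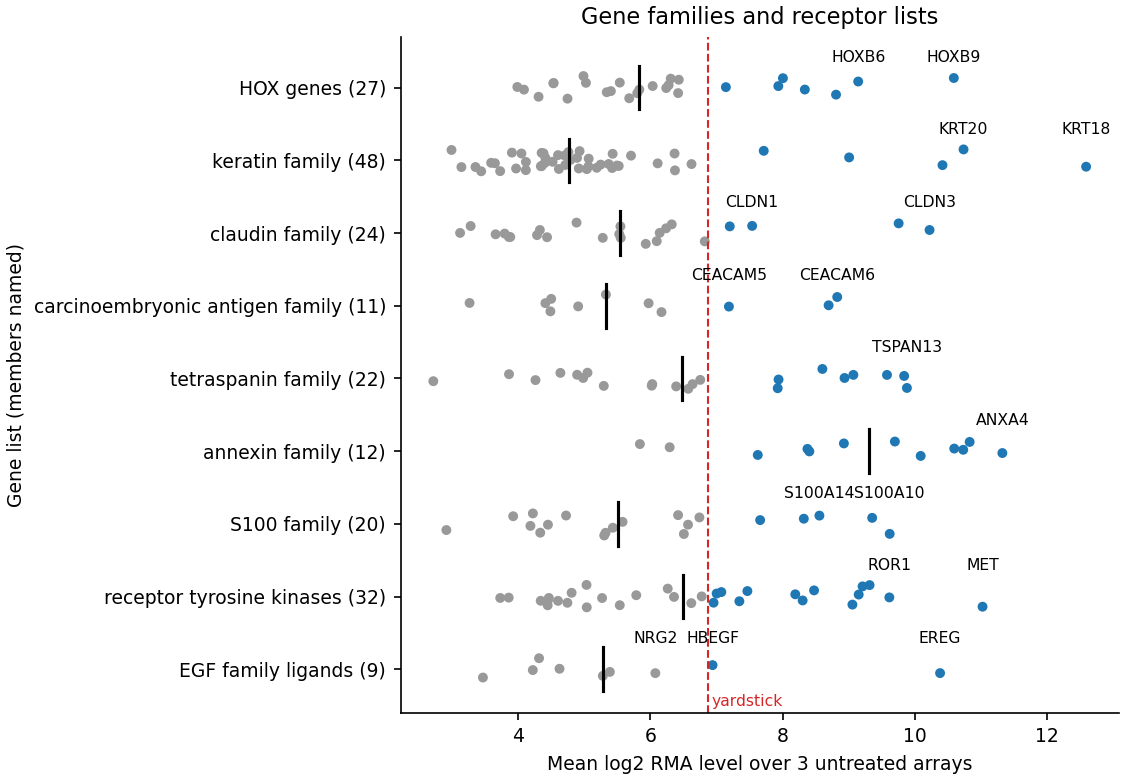
Each point is a gene of a family or receptor list (vertical axis, with the number of named members) at its mean log2 RMA level over the 3 untreated arrays (horizontal axis), blue above the yardstick of 6.87 (dashed line) and grey at or under it, with the median as a black bar. The annexins lie mostly right of the yardstick with a median of 9.31, while in the keratins, claudins and EGF family ligands a few members such as KRT18, CLDN3 and EREG stand far from a low median.

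Cell division genes stood high throughout. Of 28 named of 30, all 28 lay above the yardstick, 22 were in the top 10% of the ranking and the median was 9.58. MKI67, the proliferation antigen Ki-67, read 11.36, 11.28 and 11.57 (11.40 ± 0.15, rank 56). TOP2A, the topoisomerase of dividing cells, stood at 11.08 ± 0.07 and PCNA, the sliding clamp of DNA polymerase, at 10.84 ± 0.01. The lowest member was CCNE2, a cyclin of the entry into S phase, at 7.39.

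The machinery of protein synthesis and folding was likewise high. Of 46 named cytosolic ribosomal proteins 40 lay above with a median of 8.30, although 6, among them RPL14 (6.60), RPL22 (6.14) and RPL31 (6.35), lay under. Of 73 mitochondrial ribosomal proteins 62 lay above with a median of 8.20, led by MRPL45 (11.28 ± 0.16), MRPS35 (10.89 ± 0.12) and MRPS15 (10.88 ± 0.08), and with MRPL1 at 6.81, MRPL22 at 6.36 and MRPL23 at 5.85. Of 20 translation factors 14 lay above, led by EEF2, EEF1G (11.92 ± 0.03) and EIF4B (10.63 ± 0.06), with EEF1D, EIF1B and EIF4E1B at 6.02, 5.32 and 5.79. All 11 named chaperone genes of 32 lay above, with a median of 11.21. Many members of these families have processed pseudogenes, and cross-reading was not tested.

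Metabolic and structural lists showed the same lean with exceptions, and the respiratory chain list showed it least. Of 9 named glycolysis genes of 23, 8 lay above, with GPI, phosphoglucose isomerase, at 11.61 ± 0.04, followed by LDHB, a lactate dehydrogenase, and PGK1 at 8.64 ± 0.08, and with TPI1 at 6.43. Of 24 respiratory chain genes 13 (54.2%) lay above, with a median of 7.21, against 40.9% and 6.36 for protein-coding genes. They were led by COX6A1 (11.80 ± 0.06), COX8A (11.57 ± 0.19) and UQCRC2 (11.20 ± 0.08), with ATP5MJ, COX5B and COX6A2 at 6.43, 6.68 and 5.11. Of 10 cytoskeletal genes of 31, 8 lay above, led by TMSB10, PFN1, profilin (11.66 ± 0.06), and MSN, moesin (11.40 ± 0.09), with RDX, radixin, at 6.42 and CFL1 under the yardstick. Of 20 named nuclear and RNA-binding genes of 25, 18 lay above with a median of 10.39, led by XRCC5, YBX1 and FBL, fibrillarin of the nucleolus (11.60 ± 0.07), with HMGN1 at 6.67 and HMGN2 at 6.36.

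Of 15 named antioxidant and detoxification genes of 34, 12 lay above the yardstick and the median was 9.52. TXN read 12.03, 11.99 and 12.27 on arrays 1, 2 and 3. PRDX1, a peroxiredoxin that removes hydrogen peroxide, stood at 11.80 ± 0.05 and GSTP1, a glutathione transferase, at 11.40 ± 0.04. GPX3, GSTA1 and GSTM3 were under the yardstick at 5.79, 5.61 and 3.67.

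Above the yardstick lay 4870 of 11915 protein-coding genes (40.9%), 91 of 1398 long noncoding RNAs (6.51%), 69 of 447 transcribed pseudogenes (15.4%) and 103 of 1072 microRNA loci (9.61%). Of the small classes, 13 of 23 other noncoding RNAs (56.5%) and 6 of 8 small nuclear type RNAs (75%) did. A microRNA is cut from a hairpin precursor and guides silencing through its seed, bases 2 to 8. The array reads labelled total RNA, and its row for such a locus covers the hairpin, so its level is no measure of the mature microRNA.

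The 5 highest microRNA loci were MIR622 (10.24, 10.19 and 10.53 on arrays 1, 2 and 3), MIR4737 (10.46, 10.23 and 10.07), MIR5047 (9.99, 9.85 and 10.04), MIR663B (9.61, 9.89 and 9.77) and MIR574 (9.40, 9.49 and 9.26). The arrays of MIR622 and MIR4737 overlapped. MIR375, known for its expression in enteroendocrine and islet cells, read 8.32, 8.60 and 8.52. Their mature sequences, from RefSeq (GRCh38.p14), follow with the seed in capitals, because the loci are known by these short products and not by the hairpin that was read. None of these seeds is shared.

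hsa-miR-622: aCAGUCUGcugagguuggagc
hsa-miR-4737: aUGCGAGGaugcugacagug
hsa-miR-5047: uUGCAGCUgcgguuguaaggu
hsa-miR-663b: gGUGGCCCggccgugccugagg
hsa-miR-574-5p: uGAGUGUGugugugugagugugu
hsa-miR-574-3p: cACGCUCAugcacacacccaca
hsa-miR-375-3p: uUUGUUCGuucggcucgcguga
hsa-miR-375-5p: gCGACGAGccccucgcacaaacc

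The locus of miR-622 lies at chr13:90231242-90231262 on the plus strand, and that of miR-375-3p at chr2:219001648-219001669 on the minus strand. Levels of microRNA loci went with base composition. Across 884 loci with a hairpin sequence in RefSeq, Spearman's rho between level and the GC share of the hairpin was 0.695. The median GC share was 63.8% in loci above the yardstick and 46.8% in the others. This is a description across loci on the same arrays, and the part of base composition in these levels was not tested.

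Promoters also differed along the ranking, with most of the difference among lower genes. A promoter of 300 bases, from 250 before to 50 after the start, was found in RefSeq (GRCh38.p14) for 9707 of the 11915 protein-coding genes. In the highest 10% of the ranking the median GC share was 66.0% with 28 CpG dinucleotides, and in the lowest 10% it was 50% with 6. Over all 9707 ranked promoters it was 63.7% with 23. GGGCGG, the GC box, occurred in 74.5% of promoters of the highest 10% and 34.9% of the lowest. Its share was 62.9% of the 9707 ranked promoters and 44.6% of all 27305 promoters in the table, whatever the class of gene. CCGGAAG, a core that ETS factors bind, occurred in 23.1% and 5.84%, against 15.6% of the ranked promoters and 10.7% of all. TATAAA went the other way, at 5.75% and 21.4%, against 8.19% of the ranked promoters and 12% of all. CCAAT hardly differed between these ends, at 39.6% and 38.9%, against 36.2% of the ranked promoters and 35.7% of all. With the ranking cut into 10 parts from the top, the highest 10% did not stand out from parts 2 to 4. The median GC share in these parts was 65.7%, 66.3% and 65.7%. GGGCGG occurred in 73.5%, 75.6% and 71.6%, and CCGGAAG in 21.4%, 24.3% and 21.1%. TATAAA was rarer there, at 4.26%, 3.77% and 5.36%, than in the highest 10%. Further down, GGGCGG fell from 68.5% in part 5 to 48.1% in part 8. CCAAT was rarer between the ends of the ranking than at them, at 32.3% in part 5 and 34.2% in part 8. Each motif was searched on both strands of the 300 bases with overlaps allowed, and a match is a description, not a binding site.

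Of the 100 highest genes 79 had a promoter in the table. Their median GC share was 66.0% with 30 CpG dinucleotides, the motif GGGCGG occurred in 75.9%, the ETS core in 25.3% and the CCAAT motif in 32.9%. The motif TATAAA occurred on either strand in 13.9%, against 5.75% in the highest 10% as a whole. Within 40 bases before the start TATAAA was searched on the gene's own strand alone. There it occurred in 8.86%, against 1.92% in the highest 10%. The 100 bases before the start are shown for 5 genes, chosen after their values and sequences were seen. They are 4 of the 25 highest, which range from several GC boxes to no match, and the marker KRT20, whose promoter had a GC share of 44.0%. Matches to the 4 motifs on either strand are in capitals.

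TMSB10: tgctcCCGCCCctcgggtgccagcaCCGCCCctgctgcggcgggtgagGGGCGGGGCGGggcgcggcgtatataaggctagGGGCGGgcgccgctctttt
RPL41: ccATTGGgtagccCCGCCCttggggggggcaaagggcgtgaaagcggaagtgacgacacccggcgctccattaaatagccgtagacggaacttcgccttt
RPS19: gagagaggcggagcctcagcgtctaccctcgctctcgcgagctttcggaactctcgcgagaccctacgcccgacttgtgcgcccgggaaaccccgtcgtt
EEF2: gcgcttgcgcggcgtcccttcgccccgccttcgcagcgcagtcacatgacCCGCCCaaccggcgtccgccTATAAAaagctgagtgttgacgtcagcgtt
KRT20: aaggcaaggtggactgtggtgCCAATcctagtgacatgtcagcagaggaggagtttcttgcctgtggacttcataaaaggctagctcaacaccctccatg

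TMSB10 (chr2:84905556-84905655, plus strand) holds 5 matches to GGGCGG and a GC share of 75.3% over its 300 bases. EEF2 (chr19:3985464-3985563, minus strand) holds TATAAA from position -30 and a GC box on the other strand. RPL41 (chr12:56116533-56116632, plus strand) holds CCAAT and GGGCGG on the other strand, KRT20 (chr17:40885243-40885342, minus strand) holds CCAAT, and RPS19 (chr19:41860155-41860254, plus strand) holds none of the 4 motifs in this stretch.

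The untreated arrays agreed closely for most genes. The median SD over the 3 arrays was 0.103 for all genes and 0.0926 for genes above the yardstick. Of the latter, 40 (0.776%) had an SD of 0.3 or more, against 448 of 9729 genes (4.60%) at or under the yardstick. The 40 were 24 protein-coding genes, 9 microRNA loci, 3 pseudogenes, 2 long noncoding RNAs and 2 other small RNAs. With only 3 arrays the membership of this set moved: leaving out array 1 gave 121 genes, 27 of them shared with the 40, leaving out array 3 gave 78, of which 18 were shared, and leaving out array 2 a number between these, of which 24 were shared, with the SD then taken over 2 arrays.

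CEACAM5 had the widest spread of the protein-coding genes above the yardstick. CEACAM6 had an SD of 0.32 and the same order of arrays, with array 1 highest and array 2 lowest in both, while CEACAM1 was highest on array 3. ZNRF2P1, a pseudogene, read 6.84, 6.82 and 7.48, and SCML1, a Polycomb-type protein, 6.86, 6.55 and 7.29. CENPC and CENPQ, proteins of the centromere, read 7.43, 6.86 and 7.51, and 7.25, 6.73 and 7.39. In these 4 genes array 3 was high and array 2 low.

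CAPN7, a calpain protease, read 7.38, 7.69 and 8.09, POM121, of the nuclear pore, 8.14, 7.75 and 8.45, SLF1, a DNA repair adaptor, 6.84, 6.93 and 7.49, and EID3 7.30, 7.47 and 7.94, each highest on array 3. ABHD5, the activator of fat droplet lipase, was lowest on array 1 (6.76, 7.43 and 7.25). POU5F1P4, a pseudogene (7.65, 6.98 and 7.44), and PCSK1N, an inhibitor of prohormone convertase (7.71, 7.10 and 7.14), were highest on array 1.

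Of the 40 genes, 24 were highest on array 3 and 21 lowest on array 2. The same lean ran through all genes above the yardstick, of which 47.0% were highest on array 3 and 45.1% lowest on array 2, with a median difference from the gene's mean of 0.033 on array 3 and -0.028 on array 2. The part of this shift in the spread of single genes was not tested. In the treated arrays, which did not enter the choice, the 40 genes had a median SD of 0.149 (rosemary extract) and 0.164 (carnosic acid), against 0.0757 and 0.0799 for all genes above the yardstick. With rosemary extract 6 of the 40 reached 0.3, against 39 (0.757%) of all genes above the yardstick, and with carnosic acid 5 did, against 67 (1.30%). The genes compared were not matched to the 40 for level or class of RNA, and the part of either in these spreads was not tested.

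**Figure D5:**
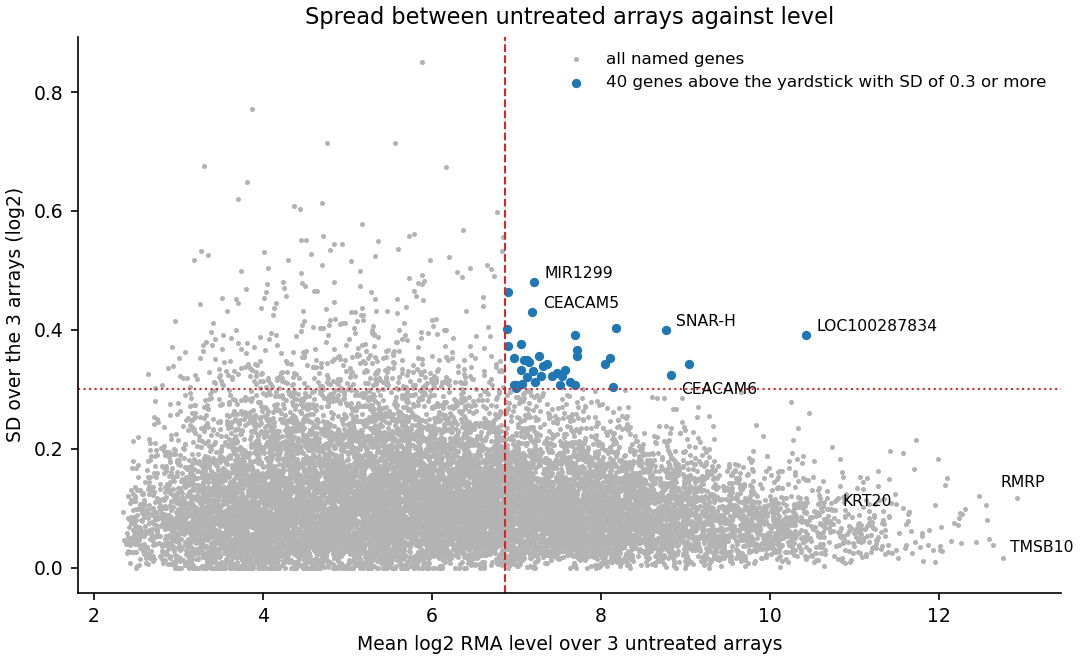
SD over the 3 untreated arrays (vertical axis, log2) against the mean log2 RMA level (horizontal axis) for all 14884 named genes (grey), with the 40 genes above the yardstick of 6.87 (dashed line) and at or over an SD of 0.3 (dotted line) in blue. Most of the 40 lie close to the yardstick, and highly ranked genes such as TMSB10 and KRT20 lie near the bottom.

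Some values repeat exactly. In 1459 genes (9.80%) a pair of untreated arrays held the same value, among them AGR2, which read 6.80 on arrays 1 and 3, and 173 of these genes lay above the yardstick. The SD of such a gene rests on fewer distinct values. No pair of whole arrays was identical.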

How the data were processed

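RNA of HT-29 cells was read on 9 Affymetrix GeneChip 2.0 ST arrays. The authors deposited log2 levels from RMA, run with oligo in R per the labels; its version is not given in the sources used here, and that the scale is log2 was read off the values. RMA subtracts background, equalises the distributions of the arrays, summarises each row's probes and compresses differences. Rows were named through the platform annotation (16098 of 53617 with 1 symbol, 0 with several), and all 16098 gene IDs matched RefSeq, with 0 symbols changed. For 779 genes with over 1 row the highest untreated mean was kept; the median gap between such rows was 0.90.

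The ranking uses the untreated arrays, and no treatment was compared. The levels chose what is described, so nothing was tested. Means, SDs, ranks and counts were computed with Python 3.11.15 and pandas 2.3.3, checked on simulated data. Alternatives used limma 3.58.1 in R 4.3.3. The yardstick was to be olfactory receptor genes, but 1 is named here, so the alternative set was used (84 keratin-associated protein and 0 taste receptor genes). Named genes are the 5 markers, the 25 highest, each list's 3 highest members and up to 3 under the yardstick in alphabetical order, and the 12 of widest spread above the yardstick without uncharacterised loci and small RNAs; others are examples chosen after their values were seen. Members and lists were chosen with earlier results of these data known, and the patterns for integrins, translation factors and ribosomal proteins were narrowed by name after values were seen. Of 44 lists, 6 with under 3 named members are not described: mucins (1), integrins (0), proteasome (0), mitochondrially encoded genes (0), antigen presentation (2) and olfactory receptors (1).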

Additional observations from a re-analysis of the deposited data

How the results depend on the processing

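The marker levels say little about stability: each marker has 1 row, centring leaves the means as they are, and leaving out 1 of 3 arrays cannot move a mean by its own SD. The count above the yardstick depends on the yardstick: 5155 genes in the main setting, 3213 with the 99th percentile of the keratin-associated proteins (a level of 7.79, chosen after seeing the data), and 13806 with the 1 olfactory receptor gene named. The planned 90th and 99th percentiles of olfactory receptors could not be run on 1 gene. Leaving out an array gave 4963 to 5380 genes. When all rows were ranked, named or not, 1 of the 100 highest was a gene of the list. Leaving out an array kept 97 to 99 of the 100, but the arrays that stay are part of the mean that chose the 100. Genes of wide spread numbered 488 with no filter on low values and 78 to 121 when an array was left out. Of 296 counts of list members, 291 stayed within 1.5 times. This was partly fixed in advance: median centring changes neither the means nor the yardstick, so its counts could not move. Choosing a gene's row by all 9 arrays can affect only genes with over 1 row, and it left each list's count as it was. The counts that moved were in the EGF family ligands (2 to 1), claudins (4 to 2), receptor tyrosine kinases (14 to 9) and cytokines (4 to 2). They moved at the 99th percentile and, for the ligands, also without array 3. No paired analysis was possible because the results describe 1 group and come from no test. Values near the yardstick cannot be told from background.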

Other observations

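Several genes outside the lists also stood among the 100 highest and were picked out after their values were seen. BMP4, a secreted growth factor of the BMP family that opposes the stem cell state in the crypt, stood at 11.68 ± 0.02 (rank 36). TM4SF4 and TM4SF1, membrane proteins with 4 spans, stood at 11.35 ± 0.12 and 11.33 ± 0.04. ODC1, ornithine decarboxylase, the first enzyme of polyamine synthesis, stood at 11.77 ± 0.03, beside OAZ1, the antizyme that limits it. HMGA1, a chromatin protein of dividing and tumour cells, read 11.26 ± 0.03, ETS2, a factor downstream of ERK, 11.40 ± 0.03, and CTSD, the lysosomal protease cathepsin D, 11.25 ± 0.05.

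Noncoding RNAs among the 100 highest were MALAT1, a nuclear RNA of splicing bodies (11.70 ± 0.17), NORAD, which binds Pumilio proteins (11.41 ± 0.20), LINC00987 (11.72 ± 0.21) and the small RNAs SNAR-B1 and SNAR-C1 (11.65 ± 0.09). TERC, the RNA of telomerase, stood at 10.20 ± 0.05 (rank 365). The SNAR copies share their sequence, so the signal of 1 copy cannot be told from that of another.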
